A study of Mus musculus with 17 samples.

Results

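The 9 genes Rgs1, Rgs2, Rgs10, Rgs16, Rgs19, Gnai2, Rasgrp1, Rasgrp2 and Rap1gap2, which regulate G proteins and small GTPases in migrating lymphocytes, were followed in CD8+ T cells of mouse brain and blood. They were taken by symbol from the 48709 genes of the deposited count table. The members were chosen by name with earlier results of these data in view; they were not selected on a stated threshold, and which of the brain and blood values led to the choice is not recorded. Their brain and blood values are therefore descriptions, and the adjusted p-values below give each gene's standing in a fit across all genes rather than evidence about the set. Of the 9 members, 5 (Rgs1, Rgs19, Gnai2, Rasgrp1 and Rasgrp2) passed the expression filter and were among the 2366 genes fitted. The other 4 (Rgs2, Rgs10, Rgs16 and Rap1gap2) had too few counts and are described from their counts.

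Chemokine and sphingosine phosphate receptors of lymphocytes signal through heterotrimeric G proteins of the Gi class. RGS proteins end that signal by speeding GTP hydrolysis on the alpha subunit, and RGS1 is known in T cells as a brake on chemokine-driven migration and as a transcript of tissue-resident memory cells. Downstream, the GTPase Rap1 activates integrins: RASGRP2 loads it with GTP and Rap1 GTPase-activating proteins switch it off, while RASGRP1 links the T cell receptor to Ras.

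The study set CD8+ T cells of aged mice from brain against those from blood, and those of an Alzheimer amyloid strain against those of wild type (WT) animals. The 17 libraries comprised 4 from APP-PS1 brain, 3 from APP-PS1 blood, 5 from WT brain and 5 from WT blood. APP-PS1 (APP Swedish PS1 dE9) mice carry a chimeric mouse and human mutant amyloid precursor protein and a mutant human presenilin 1, which a prion protein promoter directs to neurons of the central nervous system. WT mice were the non-transgenic controls. Brains were used whole, with both hemispheres of each mouse, and freed of myelin on Percoll, whereas blood went through red cell lysis, so tissue and preparation cannot be told apart. All WT libraries were from females, while 3 of the 4 APP-PS1 brain libraries and 2 of the 3 APP-PS1 blood libraries were from males, so strain and sex largely coincide. The sources used here give no age in months and do not say whether any brain and blood samples shared an animal. The submitters' design counts 7 transgenic and 10 WT mice, as many as the libraries of each strain, so each library may be from a separate mouse. P-values cover only the variation among these libraries, part of which may be technical.

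Totals ranged from 27646 to 127707 counts in APP-PS1 brain, 39055 to 46336 in APP-PS1 blood, 51161 to 169903 in WT brain and 62604 to 214670 in WT blood. Every APP-PS1 blood library was thus shallower than every WT blood library, so strain and depth cannot be told apart in blood. At these depths 1 count was worth 4.66 to 36.2 CPM (counts scaled to the library total). The libraries least like their own group were APP-PS1 brain replicate 1 and APP-PS1 blood replicate 1, with median correlations of 0.722 and 0.732. All 10 CD8 T cell markers (CD3 chains, CD8 chains, T cell receptor constant chains and Cd2) were detected in every group, with a median summed level of 10280 CPM in APP-PS1 brain, 8782 in APP-PS1 blood, 11024 in WT brain and 9678 in WT blood. Cd4, Foxp3 and the microglial genes P2ry12, Tmem119, C1qa, Trem2 and Adgre1 had 0 counts in all libraries. Red cell genes summed to a median of 206 CPM in APP-PS1 brain, 7056 in APP-PS1 blood, 323 in WT brain and 8142 in WT blood.

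Brain was set against blood within each strain to ask how CD8+ T cells in the tissue differ from those in circulation. Mean levels of Rgs1 were higher, and those of Rasgrp2 lower, in brain than in blood of both strains. Gnai2, the Gi alpha subunit on which RGS proteins act, and Rgs19 differed between brain and blood by less than their spread between libraries. Of the 5 fitted members none was called by edgeR, DESeq2 or limma voom in APP-PS1 or in WT mice; at an unadjusted p under 0.05 edgeR had 1 (Rgs1) in APP-PS1, where 10.7% of all fitted genes were under it, and 2 (Rgs1 and Rasgrp2) in WT, where 7.27% were. For comparison, the quasi-likelihood test of edgeR, adjusted by the Benjamini-Hochberg method, called 0.761% of all 2366 genes in WT (18 genes) and 0.549% in APP-PS1 (13 genes, with 0.211% higher and 0.338% lower in brain). Because the members were chosen with such values known, nothing is read from these counts.

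**Figure D1:**
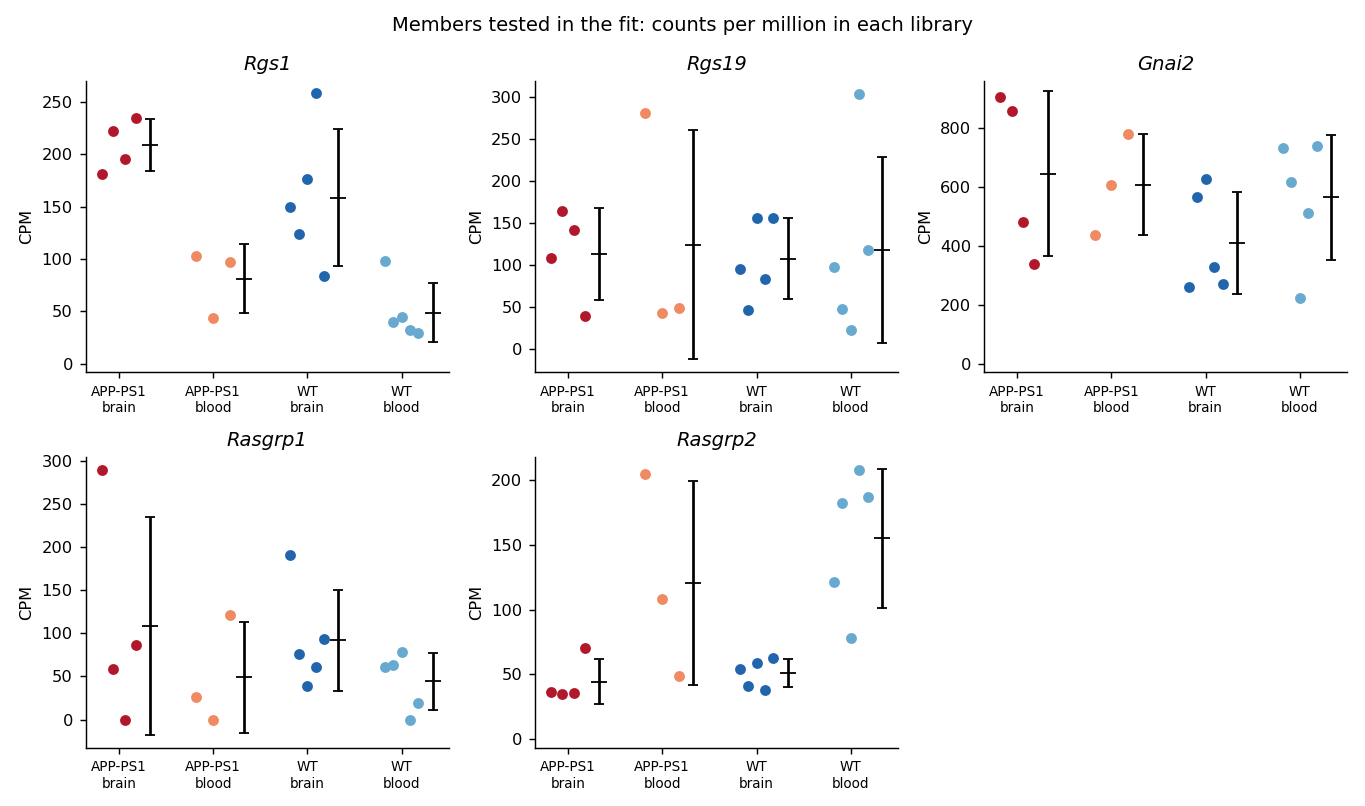
Level of each fitted member in every library (CPM, linear axis), by group, with the group mean and SD beside the points; where the SD exceeds the mean the bar runs below 0. Rgs1 lies highest in the brain groups (181 to 235 CPM in APP-PS1 brain, against 43.2 to 102 CPM in APP-PS1 blood), whereas all 5 WT brain libraries lie below all 5 WT blood libraries for Rasgrp2.

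Among the G protein genes, Gnai2 encodes the Gi alpha-2 subunit that couples chemokine receptors to their effectors. It is protein coding and lies on chromosome 9 from 107614125 to 107635367 (GRCm38, minus strand). The APP-PS1 brain libraries had 904, 855, 480 and 337 CPM, and the APP-PS1 blood libraries 435, 604 and 779 CPM. The WT brain libraries had 259, 565, 625, 326 and 271 CPM, and the WT blood libraries 731, 617, 223, 511 and 737 CPM. The groups overlapped in both strains, with brain libraries among both the highest and the lowest in APP-PS1 and the lowest library of all in WT blood. The log2 fold change of brain over blood was 0.00 in APP-PS1 (SE 0.44, adjusted p = 0.999) and -0.56 in WT (SE 0.30, adjusted p = 0.751), with a 95% interval of -0.85 to 0.86 in APP-PS1 and -1.15 to 0.03 in WT.

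Rgs1 encodes a GTPase-activating protein for Gi alpha subunits and lies on chromosome 1 from 144242296 to 144249242 (minus strand, protein coding). In APP-PS1 brain its 4 libraries had 181, 222, 196 and 235 CPM, from 5, 19, 11 and 30 counts. In APP-PS1 blood its 3 libraries had 102, 43.2 and 97.3 CPM, from 4, 2 and 4 counts. All 4 APP-PS1 brain libraries thus lay above all 3 APP-PS1 blood libraries, which held for 5.07% of the fitted genes, while 3.97% lay lower in that way. In WT brain the libraries had 150, 124, 176, 258 and 83.5 CPM, and in WT blood 97.8, 39.5, 44.6, 31.9 and 29.5 CPM. The WT groups met in a single pair of libraries, since WT brain replicate 5, at 83.5 CPM, lay below WT blood replicate 1, at 97.8 CPM. Rgs1 averaged 208 ± 24.7 CPM in APP-PS1 brain (SD, n = 4) and 81.0 ± 32.8 CPM in APP-PS1 blood (SD, n = 3). It averaged 158 ± 65.4 CPM in WT brain and 48.7 ± 28.1 CPM in WT blood (SD, n = 5 each). The log2 fold change was 1.39 in APP-PS1 (SE 0.63, adjusted p = 0.413) and 1.48 in WT (SE 0.46, adjusted p = 0.140), and neither passed over all genes. Without WT blood replicate 1 the WT value was 1.98 (adjusted p = 0.0550), and with all libraries thinned to 27646 counts the APP-PS1 value was 0.51 (adjusted p = 0.999). In bulk libraries, fewer cells of a type that express a gene and less RNA per cell cannot be told apart.

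Rgs19, whose product also acts on Gi-class alpha subunits, lies on chromosome 2 from 181688419 to 181693977 (minus strand, protein coding). The APP-PS1 brain libraries had 109, 164, 142 and 39.2 CPM and the APP-PS1 blood libraries 282, 43.2 and 48.7 CPM. The WT brain libraries had 95.3, 47.1, 156, 83.5 and 157 CPM and the WT blood libraries 97.8, 47.4, 22.3, 303 and 118 CPM. In each blood group a single library, APP-PS1 blood replicate 1 and WT blood replicate 4, stood at more than every brain library, and the groups overlapped. Its log2 fold change was -0.12 in APP-PS1 (SE 0.73, adjusted p = 0.970) and -0.18 in WT (SE 0.54, adjusted p = 0.984). Without the high blood library these became 1.17 in APP-PS1 (adjusted p = 0.769) and 0.40 in WT (adjusted p = 0.952).

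The 3 other RGS members were near the counting limit. Rgs10, another RGS protein that acts on Gi-class subunits, had 0, 3, 1 and 10 counts in the APP-PS1 brain libraries and 0, 3 and 0 in the APP-PS1 blood libraries. In WT it had 5, 12, 0, 4 and 0 counts in brain and 6, 0, 1, 4 and 1 in blood. Libraries with 0 counts occurred in all 4 groups, and the groups overlapped. Its mean was 32.8 ± 33.6 CPM in APP-PS1 brain (SD, n = 4) and 21.6 ± 37.4 CPM in APP-PS1 blood (SD, n = 3; exact two-sided permutation p = 0.657, adjusted p = 0.995). In WT the mean was 33.8 ± 34.7 CPM in brain and 22.6 ± 25.2 CPM in blood (SD, n = 5 each; exact permutation p = 0.643, adjusted p = 0.991). Rgs2, which acts mainly on Gq-class subunits, had 6 counts in 2 of 4 APP-PS1 brain libraries, 3 in 1 of 3 APP-PS1 blood libraries, 9 in 3 of 5 WT brain libraries and 2 in 2 of 5 WT blood libraries. The WT comparison of Rgs2 gave an exact permutation p of 0.484 (n = 5 each, adjusted p = 0.963), and in APP-PS1 it had fewer than the 10 counts required for that test. Rgs16 had 2 counts in all, 1 in WT brain replicate 4 and 1 in WT blood replicate 1. Its 0 counts over APP-PS1 brain allow up to 10.1 CPM and those over APP-PS1 blood up to 23.7 CPM (3 counts over each group, counting error only), so no difference was detectable at this depth.

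**Figure D2:**
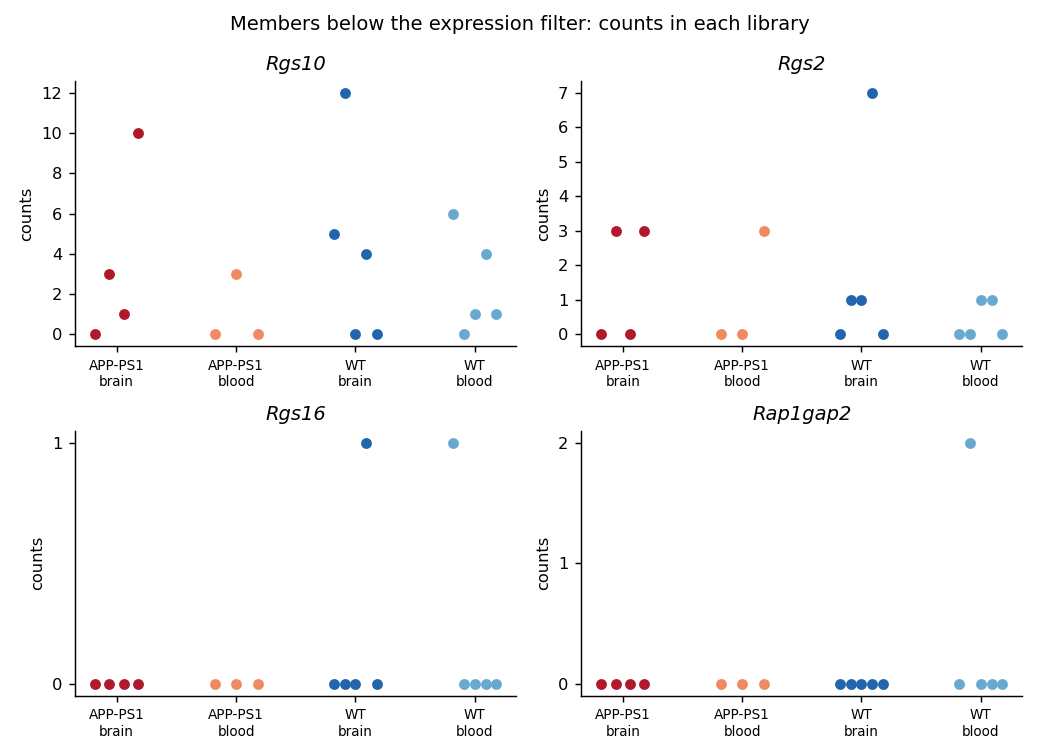
Counts of the 4 members below the expression filter in every library, by group; each panel has its own linear axis in counts. Rgs10 reaches 12 counts and Rgs2 7 counts, both in WT brain, and Rgs16 and Rap1gap2 have 2 counts each over all libraries.

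Of the Rap1 and Ras regulators, Rasgrp2 encodes the calcium-regulated exchange factor that loads Rap1 and is best known from platelets and integrin activation. It lies on chromosome 19 from 6399340 to 6415216 (plus strand, protein coding). Among the fitted members it had the most negative fold change of WT brain over WT blood, so its promoters are shown, each as the 250 bases before a RefSeq transcription start on GRCm38.p6. Capitals mark the letters CACCC or their reverse complement GGGTG, a core of the CACCC box bound by Kruppel-like factors. The Rasgrp2 windows are chr19:6399625-6399874 and chr19:6401455-6401704 on the plus strand.
Rasgrp2, first start: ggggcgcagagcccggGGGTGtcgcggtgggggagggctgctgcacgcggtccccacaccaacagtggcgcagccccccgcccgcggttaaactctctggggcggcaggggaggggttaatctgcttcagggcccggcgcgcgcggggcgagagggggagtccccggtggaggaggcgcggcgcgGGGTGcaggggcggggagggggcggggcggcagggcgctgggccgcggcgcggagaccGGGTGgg
Rasgrp2, second start: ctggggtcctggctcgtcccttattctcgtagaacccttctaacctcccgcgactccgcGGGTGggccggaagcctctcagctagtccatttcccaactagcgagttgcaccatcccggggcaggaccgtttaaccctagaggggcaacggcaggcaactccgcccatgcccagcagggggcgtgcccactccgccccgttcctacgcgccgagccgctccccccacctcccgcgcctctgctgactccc
Searched on both strands, the first Rasgrp2 window held 3 matches and the second 1. The window of Rgs16, a member with 2 counts over all libraries, also held 3. Of 32851 RefSeq promoter windows of this length, 52% held at least 1 match and 6.92% held 3 or more. G and C made up 79.6% of the first Rasgrp2 window, 67.2% of the second and 66.4% of the Rgs16 window. The windows behind the 52% and 6.92% were not matched for base content. A match is a description of the letters and no binding was measured. RefSeq windows, 13 in all, were found for 7 of the 9 members, and Rgs1 and Gnai2 had no entry.

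In APP-PS1 brain the Rasgrp2 libraries had 36.2, 35.1, 35.6 and 70.5 CPM, from 1, 3, 2 and 9 counts. In APP-PS1 blood they had 205, 108 and 48.7 CPM, from 8, 5 and 2 counts. The groups overlapped, since APP-PS1 brain replicate 4 lay above APP-PS1 blood replicate 3. In WT brain the libraries had 54.4, 41.2, 58.6, 37.9 and 62.6 CPM, and in WT blood 121, 182, 78.0, 208 and 187 CPM. All 5 WT brain libraries lay below all 5 WT blood libraries, as in 1.14% of fitted genes. Rasgrp2 averaged 44.3 ± 17.4 CPM in APP-PS1 brain (SD, n = 4) and 120 ± 78.8 CPM in APP-PS1 blood (SD, n = 3). It averaged 51 ± 10.9 CPM in WT brain and 155 ± 53.8 CPM in WT blood (SD, n = 5 each). The log2 fold change was -1.28 in APP-PS1 (SE 0.71, adjusted p = 0.537) and -1.68 in WT (SE 0.52, adjusted p = 0.134), and neither passed. As Rasgrp2 is abundant in platelets, the 13 platelet markers were counted beside it. They held 1 count in APP-PS1 brain, 12 in APP-PS1 blood, 4 in WT brain and 19 in WT blood, with 12, 9, 10 and 10 of the 13 genes at 0. Per library their sum was 0 to 17.8 CPM in APP-PS1 brain, 0 to 237 CPM in APP-PS1 blood, 0 to 22.8 CPM in WT brain and 11.1 to 47.4 CPM in WT blood. In APP-PS1 blood, replicates 1, 2 and 3 had 0, 11 and 1 platelet counts beside 205, 108 and 48.7 CPM of Rasgrp2. In WT blood, replicates 1 to 5 had 8, 6, 1, 2 and 2 platelet counts beside 121, 182, 78.0, 208 and 187 CPM of Rasgrp2. The platelet counts were 0, 0, 1 and 0 in APP-PS1 brain replicates 1 to 4, and 0, 1, 0, 3 and 0 in WT brain replicates 1 to 5. The part of platelet RNA in the Rasgrp2 values of either strain was not tested.

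Rasgrp1, the Ras exchange factor that acts below the T cell receptor, lies on chromosome 2 from 117279993 to 117343001 (minus strand, protein coding). The APP-PS1 brain libraries had 289, 58.5, 0 and 86.1 CPM and the APP-PS1 blood libraries 25.6, 0 and 122 CPM. The WT brain libraries had 191, 76.5, 39.1, 60.7 and 93.9 CPM and the WT blood libraries 60.6, 63.3, 78.0, 0 and 19.6 CPM. The groups overlapped in both strains, and the 289 CPM of APP-PS1 brain replicate 1 rest on 8 counts. The log2 fold change was 0.89 in APP-PS1 (SE 1.03, adjusted p = 0.833) and 0.90 in WT (SE 0.70, adjusted p = 0.840). Without APP-PS1 blood replicate 3 the APP-PS1 value was 2.82 (adjusted p = 0.477), and without the 2 libraries least like their group it was -0.14 (adjusted p = 0.978). Rap1gap2, a GTPase-activating protein that switches Rap1 off, had 2 counts, both in WT blood replicate 2. In the other 3 groups its 0 counts allow up to 10.1 CPM in APP-PS1 brain, 23.7 CPM in APP-PS1 blood and 5.75 CPM in WT brain.

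**Figure D3:**
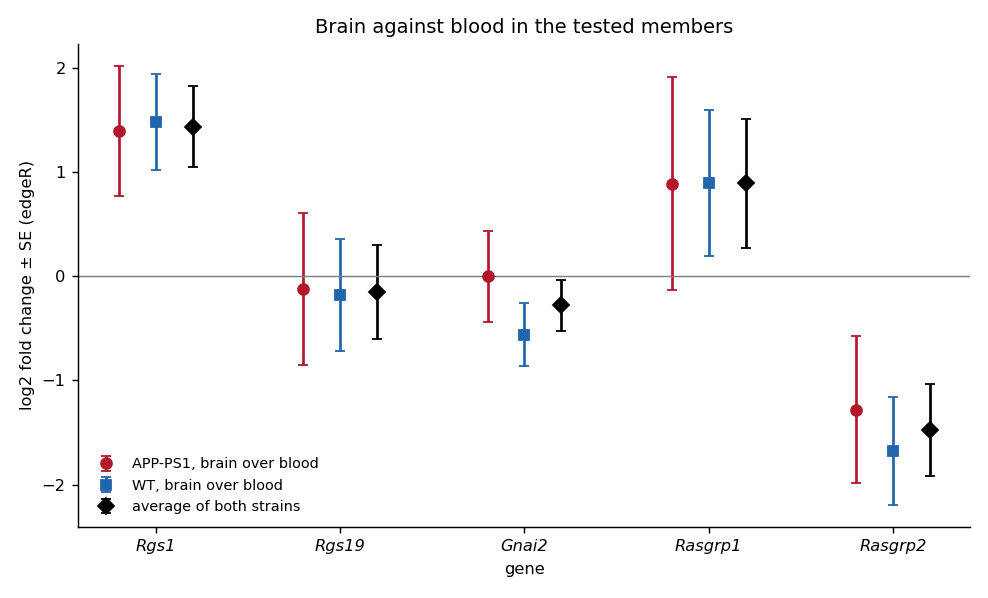
Log2 fold change of brain over blood for the 5 fitted members, with bars of 1 SE, in APP-PS1 mice, in WT mice and averaged over both strains. Rgs1 and Rasgrp1 lie above 0 and Rasgrp2 below 0 in both strains, and the widest bars belong to Rasgrp1 (SE 1.03 in APP-PS1).

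Averaging brain over blood across both strains uses all 17 libraries; this contrast was first added to the series after counts of called genes were known. It called 2.62% of fitted genes (62 of 2366), 1.27% higher and 1.35% lower in brain. Of the 5 fitted members it called 1, Rgs1, higher in brain (log2 fold change 1.44, SE 0.39, adjusted p = 0.0261). Rasgrp2 narrowly missed the threshold (-1.48, SE 0.44, adjusted p = 0.0524), and Rasgrp1 (0.89), Gnai2 (-0.28) and Rgs19 (-0.15) had adjusted p-values of 0.586 to 0.937. Every fitted gene held at least 117 CPM in its third-highest library. Rgs1 reached 117 CPM only in brain libraries (at most 102 CPM in blood), and Rasgrp2 only in blood (at most 70.5 CPM in brain). Each thus entered the fit through the tissue where it was higher, so these adjusted p-values depend on that filter and are descriptions. The Rgs1 call was lost without any of the 3 APP-PS1 blood libraries (adjusted p = 0.0590, 0.11 and 0.0512 for replicates 1, 2 and 3), or without replicate 2 (0.0512) or 4 (0.0567) of APP-PS1 brain, and without replicate 4 of WT brain (0.0671). It was also lost with limma voom (0.114), with no filter on low counts (0.113), with a filter of 5 CPM in 3 libraries (0.0677) and after thinning (0.924). The Rasgrp2 value passed when replicate 3 of APP-PS1 blood (0.0365), replicate 4 of APP-PS1 brain (0.0461) or replicate 3 of WT blood (0.0416) was left out.

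Ratios within a library do not depend on its scaling, so the counts of functionally paired members were set against each other; these pairs were chosen after their values were seen and carry no test. Of the counts of both exchange factors, Rasgrp1 took 61.5% in APP-PS1 brain (24 of 39, exact 95% interval 44.6 to 76.6%) and 28.6% in APP-PS1 blood (6 of 21, 11.3 to 52.2%). In WT it took 64.8% in brain (46 of 71, 52.5 to 75.8%) and 25.4% in blood (30 of 118, 17.9 to 34.3%). In the summed counts brain held more Rasgrp1 than Rasgrp2 and blood the reverse. In APP-PS1 the intervals of both tissues include 50%, so the order is not settled in that strain. Single libraries overlapped in both strains: they ranged from 0 to 88.9% in APP-PS1 brain, 0 to 71.4% in APP-PS1 blood, 40 to 77.8% in WT brain and 0 to 50% in WT blood. Of the counts of Rgs1 and its substrate Gnai2, Rgs1 took 27.9% in APP-PS1 brain (65 of 233, 22.2 to 34.1%) and 11.5% in APP-PS1 blood (10 of 87, 5.65 to 20.1%). In WT it took 27.8% in brain (83 of 299, 22.8 to 33.2%) and 8.82% in blood (35 of 397, 6.22 to 12.0%). By library the Rgs1 share was 16.7 to 41.1% in APP-PS1 brain and 6.67 to 19.0% in APP-PS1 blood, which overlap, and 17.9 to 44.2% in WT brain and 3.85 to 16.7% in WT blood, which do not. The CPM of Rgs1 alone did overlap in WT. Gnai2 averaged less in WT brain (409 CPM) than in WT blood (564 CPM), which also raises the share in brain. How many other gene pairs separate in this way was not counted, so nothing is read from it. The intervals are exact binomial ones and cover counting error only.

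**Figure D4:**
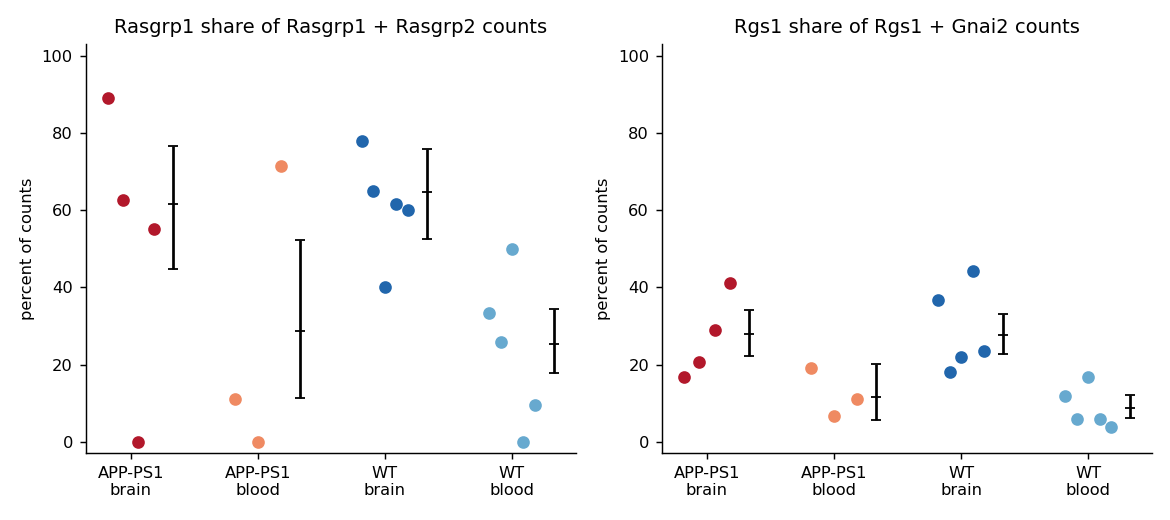
Share of counts, in percent, that Rasgrp1 takes of Rasgrp1 plus Rasgrp2 and that Rgs1 takes of Rgs1 plus Gnai2. Points are libraries, and the tick and bar are the share over the summed counts of a group with its exact 95% interval. The summed Rgs1 share is 27.9% in APP-PS1 brain, 11.5% in APP-PS1 blood, 27.8% in WT brain and 8.82% in WT blood.

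APP-PS1 was set against WT within each tissue to ask whether the amyloid model alters these cells. No member was called in brain, where edgeR called 0.0% of fitted genes (0 of 2366, with 98 at an unadjusted p under 0.05), or in blood, where it called 0.0423% (1 gene, the chemokine receptor Ccr7). DESeq2 and limma voom called no member in either tissue, and with edgeR 0 of the 5 had an unadjusted p under 0.05 in either, against 4.14% of all fitted genes in brain and 8.03% in blood. The groups overlapped for every member, while 0.845% of fitted genes were higher and 0.719% lower without overlap in brain, and 3.25% higher and 3.68% lower in blood. Among the 5 fitted members the largest log2 fold change in brain was that of Gnai2. It averaged 644 ± 279 CPM in APP-PS1 brain (SD, n = 4) and 409 ± 173 CPM in WT brain (SD, n = 5), and its log2 fold change was 0.56 (SE 0.33, adjusted p = 0.999). The other log2 fold changes in brain were 0.39 for Rgs1 (SE 0.45), 0.05 for Rgs19 (SE 0.60), -0.06 for Rasgrp1 (SE 0.75) and -0.08 for Rasgrp2 (SE 0.65), with adjusted p-values of 0.999. With sex as a term Rgs19 changed to -1.30 (SE 0.89) and Rasgrp1 to 0.71 (SE 1.10). As all WT libraries were female, that term was estimated within APP-PS1 only, which had 1 female library in each tissue.

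In blood, APP-PS1 over WT, the log2 fold change was 0.48 for Rgs1 (SE 0.65, adjusted p = 0.883) and -0.48 for Rasgrp2 (SE 0.61, adjusted p = 0.876). Gnai2 (-0.00, SE 0.35), Rgs19 (-0.01, SE 0.73) and Rasgrp1 (-0.05, SE 0.96) had adjusted p-values of 0.990 to 0.999. The 95% interval of Rasgrp1 ran from -1.93 to 1.83, so any change within these bounds is compatible with the data. With sex as a term, again estimated within APP-PS1 only, Rgs19 changed to -1.32 (SE 0.95), and without APP-PS1 blood replicate 1 to -1.29 (SE 0.93). Without APP-PS1 blood replicate 3 Rasgrp1 changed to -2.04. The exact permutation tests of Rgs10 (mean 21.6 CPM in APP-PS1 blood and 22.6 CPM in WT blood; 32.8 CPM in APP-PS1 brain and 33.8 CPM in WT brain) and of Rgs2 in brain (14.7 CPM in APP-PS1 and 15.7 CPM in WT) gave p of 0.921 to 1.0. The comparisons share libraries, so their values are set side by side only. The strains' brain over blood changes were compared directly by the interaction, APP-PS1 change minus WT change. It called 0.0423% of fitted genes and no member. The difference was 0.56 for Gnai2 (SE 0.49), 0.40 for Rasgrp2 (SE 0.89) and -0.09 for Rgs1 (SE 0.75), all with an adjusted p of 0.999.

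The members belong to a wider signalling system, for which 123 symbols in 7 lists were followed, chosen with earlier results known. Of these, 121 were listed in the deposited counts and 47 were fitted, and both missing symbols, Grk2 and Grk3, are listed under the older names Adrbk1 and Adrbk2. In WT brain over blood 1 was called higher and 1 lower, and in APP-PS1 also 1 higher and 1 lower, all 4 calls among the Gi-coupled migration receptors. The chemokine receptor Cxcr6 was higher in brain in both strains: 852 ± 119 CPM in APP-PS1 brain (SD, n = 4), 232 ± 97.7 CPM in APP-PS1 blood (SD, n = 3), 761 ± 291 CPM in WT brain and 306 ± 118 CPM in WT blood (SD, n = 5 each). Its log2 fold change was 1.87 in APP-PS1 (adjusted p = 0.00671) and 1.21 in WT (adjusted p = 0.0130). Those calls were lost without APP-PS1 blood replicate 2 in APP-PS1 (0.0961), and in WT when replicate 2 (0.0965) or 3 (0.0869) of the blood or replicate 3 (0.0949) of the brain was left out. They were also lost after thinning (0.515 in APP-PS1 and 0.109 in WT), and the WT call with no filter on low counts (0.145) or with the 5 CPM filter (0.0725). The homing receptor Ccr7 was lower in APP-PS1 brain than in APP-PS1 blood (log2 fold change -4.47, adjusted p = 1.21e-05), and the egress receptor S1pr1 lower in WT brain than in WT blood (-3.59, adjusted p = 0.0151). Ccr7 averaged 24.8 CPM in APP-PS1 brain and 503 CPM in APP-PS1 blood, and S1pr1 7.97 CPM in WT brain and 138 CPM in WT blood. Neither reached 117 CPM in a brain library, so both entered the fit through blood. The adjusted p-values of both genes depend on that filter and are descriptions. The S1pr1 call was lost without WT brain replicate 1 (0.0514) or 4 (0.0822), with limma voom (0.0667) and after thinning (log2 fold change -1.50, adjusted p = 0.997), and without WT blood replicate 2, 3 or 4, or with only the WT groups, the gene did not pass the filter. The Ccr7 call in APP-PS1 was lost after thinning (0.0520), and DESeq2 gave Ccr7 no adjusted p there. Ccr7 was also the gene called between the blood groups, higher in APP-PS1 blood by a log2 fold change of 2.54 (adjusted p = 0.0169). That call was lost without any APP-PS1 blood library (0.119 to 0.268 for replicates 1, 2 and 3) and without WT blood replicate 1 (0.0601), 2 (0.0540), 3 (0.101) or 5 (0.0711). It was also lost with sex as a term (0.539), with no filter (0.100), with the 5 CPM filter (0.0641), after thinning (0.997) and without the 2 libraries least like their group (0.282).

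No other listed gene was called in either strain, against medians of 0.03 in APP-PS1 and 0.02 in WT over all fitted genes. The 8 fitted G protein subunits had a median log2 fold change of 0.81 in APP-PS1 and 0.02 in WT, with Gnb1 at -0.29 in APP-PS1 and -0.51 in WT and Gnas at 0.06 in APP-PS1 and -0.46 in WT. In APP-PS1, 6 of the 8 were above 0 and 2 below. The highest, Gna13 (3.09, SE 1.35), Gng2 (1.72, SE 0.82), Gng10 (1.31, SE 0.96) and Gnai3 (1.25, SE 1.08), had only 100 to 128 counts each over all libraries. The 11 fitted Rap1 and Ras switches had a median of -0.36 in APP-PS1 and -0.31 in WT. Of these, Rap1b, a Rap1 protein that RASGRP2 loads, was at -0.18 in APP-PS1 (adjusted p = 0.932) and -0.31 in WT (adjusted p = 0.897), and Rap2b at -0.36 in APP-PS1 (adjusted p = 0.888) and -1.27 in WT (adjusted p = 0.176). The 8 Arf and Arl regulators had a median of -0.33 in APP-PS1 and -0.19 in WT, with Arf6 at -0.13 in APP-PS1 and -0.30 in WT and Arf5 at -0.19 in APP-PS1 and -0.09 in WT. The 10 migration effectors had a median of -0.12 in APP-PS1 and -0.10 in WT, with the GTPase Rac2 at 0.16 in APP-PS1 and -0.13 in WT and Arhgdib at -0.08 in APP-PS1 and -0.40 in WT. The 8 receptors had a median of 0.07 in APP-PS1 and -0.23 in WT, and the chemokine receptor Cxcr3 among them was at 0.26 in APP-PS1 and 0.77 in WT. Of the receptor kinases and arrestins 2 were fitted, Arrb2 at 0.66 in APP-PS1 and -0.02 in WT and Grk6 at -0.33 in APP-PS1 and 0.19 in WT.

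**Figure D5:**
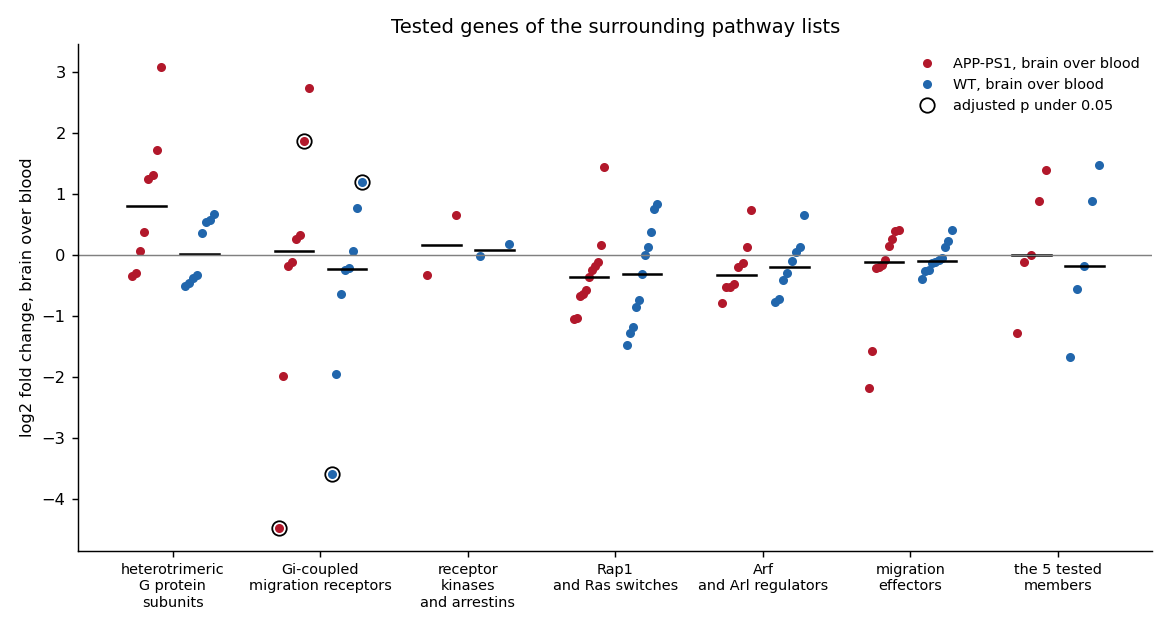
Log2 fold change of brain over blood for the fitted genes of each pathway list and for the 5 fitted members, in APP-PS1 and in WT; a horizontal line marks the list median and a ring an adjusted p under 0.05. The rings are Cxcr6 in both strains, Ccr7 in APP-PS1 and S1pr1 in WT, all receptors, and no member carries one.

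Of 16 further RGS genes none was fitted: 9 had 0 counts in all libraries, 5 had 1 to 9 counts in all, and Rgs3 and Rgs14 had 97 and 55. Rgs3 averaged 83.5 ± 23.6 CPM in APP-PS1 brain (SD, n = 4) and 32.9 ± 37.0 CPM in APP-PS1 blood (SD, n = 3), and 86.0 ± 84.1 CPM in WT brain and 47.3 ± 33 CPM in WT blood (SD, n = 5 each). Rgs14 averaged 50.2 ± 46.2 CPM in APP-PS1 brain (SD, n = 4) and 38.7 ± 36.7 CPM in APP-PS1 blood (SD, n = 3), and 26.5 ± 26.3 CPM in WT brain and 27.1 ± 12.5 CPM in WT blood (SD, n = 5 each). Both lay below the filter of the fit. Rgs1 and Rgs2 sit on chromosome 1 in a stretch of minus-strand RGS genes that runs from 143999338 to 144775435 and also holds Rgs13, Rgs21 and Rgs18. Over all libraries Rgs1 had 193 counts and Rgs2 had 20, whereas Rgs13, Rgs21 and Rgs18, an RGS gene known from platelets, had 0 each. The genes that overlap a member in the annotation, 4 in all, held at most 1 count.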

How the data were processed

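Sequenced RNA of CD8+ T cells gave 17 libraries, placed in 4 groups (strain by tissue) from the labels. The authors deposited raw counts, which are whole numbers for each gene in each library. Tools named in the submitters' processing notes are FastQC, DESeq2, HTSeq 0.11.2 and Bowtie2 2.2.2, and the genome build is GRCm38; their roles and order are not stated. Nor do the sources used here give the cell sort, strandedness, annotation release or molecular identifiers, so reads of overlapping or antisense genes cannot be told apart with certainty. Without molecular identifiers, intervals and floors cover counting error only. Over 29 pairs of same-group libraries the chi-square per degree of freedom was 2.59 to 5.69 and none held identical values (0 pairs); all libraries were kept as separate replicates.

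Counts were fitted with edgeR 4.0.16 in R 4.3.3: filterByExpr (the third-highest CPM of a kept gene was at least 117), TMM, robust dispersions (common coefficient of biological variation 0.370) and the quasi-likelihood F test, fitting a mean for each group. P-values were adjusted by Benjamini-Hochberg over all 2366 genes of a comparison, called at an adjusted p under 0.05. The SE is the absolute log2 fold change over the square root of F. CPM use library totals, with SD between libraries. Genes below the filter with at least 10 counts in both groups together (3023 to 5587 genes) were compared by exact two-sided permutation of CPM and adjusted over those genes; the smallest p this allows is 0.00794 to 0.0286. Of 48709 genes, 48349 matched GENCODE on the same build, which gave coordinates. Promoter windows are RefSeq's on GRCm38.p6.

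The members and all gene lists were chosen with earlier results of these data known; 1 further gene chosen with the 9 members is not reported here. The text names each of the 9, the called genes of each list and up to 2 of its genes with the highest mean CPM; other named genes were chosen after their values were seen. The alternatives comprised limma 3.58.1 (voom with sample quality weights), DESeq2 1.42.0, RLE scaling, 2 other filters, fits without mitochondrial, ribosomal protein and haemoglobin genes, sex as a term, only the groups compared and leaving out each library. Added after the data were seen were total counts as library sizes, thinning to 27646 counts and leaving out the 2 libraries least like their group. The steps were also run on simulated data with the same dispersion for every gene, and no statement here rests on that run. SciPy 1.17.1 and matplotlib 3.10.9 were used for the permutation tests and figures.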

Additional observations from a re-analysis of the deposited data

Results flagged for a closer look

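Each member was checked in each group of 4 or 5 libraries that held a count, 24 sets in all, for a library far from the others of its group. The rate of about 1 in 20 that chance would mark holds for continuous values and not for counts near 0, so the number marked is not set against it. Of these, 5 were marked. Rgs1 was at 97.8 CPM in WT blood replicate 1, from 21 counts, while the next WT blood library was at 44.6 CPM; the gap was 0.779 of the group's range, against a critical value of 0.71. That library is the deepest, with 214670 counts. Rasgrp2 was at 70.5 CPM in APP-PS1 brain replicate 4, from 9 counts, while the next APP-PS1 brain library was at 36.2 CPM, a gap of 0.970 of the range against a critical value of 0.829. Without that library the Rasgrp2 value averaged over strains passed the threshold (adjusted p = 0.0461 by edgeR). The other 3 were the lone libraries with any count of a gene in their group: Rgs16 at 7.59 CPM in WT brain replicate 4 and 4.66 CPM in WT blood replicate 1, from 1 count each, and Rap1gap2 at 15.8 CPM in WT blood replicate 2, from 2 counts. A lone library with a count always lies the whole range away from the others, so these 3 marks were fixed in advance.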

How the results depend on the processing

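No paired analysis was possible because the labels match no brain sample with a blood sample; the 7 and 10 mice of the design equal the libraries of each strain, so each library may be from a separate mouse. The Rgs1 call averaged over strains held in 17 of 27 alternatives, and its sign did not change in any of them. Genes called in WT, 18 as reported, became 10 with limma voom and 5 after thinning. In APP-PS1, 13 became 21 with DESeq2, 7 with voom, 8 without mitochondrial, ribosomal protein and haemoglobin genes and 6 after thinning. For APP-PS1 against WT brain, 0 became 1 after thinning. For APP-PS1 against WT blood, 1 became 3 with voom or without those genes, 5 with no filter and 7 when 5 CPM in 3 libraries was required (Ccr7 in neither), 4 with only those groups and 0 with sex as a term or without the 2 libraries least like their group. For the difference between strains, 1 became 0 with DESeq2, with voom, after thinning and without those 2 libraries. Averaged over strains, 62 genes became 38 with voom and 13 after thinning, and the 1 member called became 2 with DESeq2 or without those genes, where Rasgrp2 passed, and 0 with voom, with no filter, with the 5 CPM filter and after thinning. Leaving out each library gave 12 to 21 genes and 0 members in WT, and 8 to 22 genes and 0 members in APP-PS1 (8 without APP-PS1 blood replicate 2, 22 without replicate 3). It gave 0 genes between the brains, 0 to 3 between the bloods, 0 to 1 for the difference between strains, and 45 to 66 genes and 0 to 2 members averaged over strains. Apart from thinning, which removes counts, the cause was not tested. For APP-PS1 against WT blood the uncalled values of Gnai2 and Rgs19, both near 0, changed sign in 16 of 28 and 14 of 27 alternatives. Thinning moved the uncalled Gnai2 value of brain over blood to -0.67 in APP-PS1 and -1.03 in WT. Depth limits the 4 members below the filter, where a library's 3 counts are worth 14.0 to 109 CPM.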
